A study of Pyrus pyrifolia with 12 samples.

Results

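Auxin is the hormone that steers cell growth in plants, and 162 of the 43732 genes in the deposited table were taken here as its response and transport genes. A gene was a member when the recommended name of its Swiss-Prot best hit marked it as an auxin response factor, an auxin-responsive, auxin-induced or auxin-repressed protein, a SAUR, an auxin carrier or an auxin-conjugating enzyme. The rule reads names alone, though it was set with earlier results of these data known. By these names the members fell into 52 SAUR growth proteins, 36 auxin response factors (ARFs), 34 Aux/IAA repressors, 14 GH3 conjugating enzymes, 14 PIN efflux carriers, 10 AUX/LAX influx carriers and 2 auxin-repressed proteins.

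Auxin acts by having Aux/IAA proteins destroyed. In its absence these repressors sit on ARFs, the transcription factors that bind auxin-regulated promoters, and hold them inactive together with Topless co-repressors. When auxin docks with a receptor of the TIR1/AFB family, the Aux/IAA is marked for degradation and the ARF is released, and many Aux/IAA, SAUR and GH3 genes are themselves switched on. AUX/LAX proteins carry auxin into cells and PIN proteins carry it out, which gives auxin flow its direction, and GH3 enzymes tie auxin to amino acids and so withdraw it.

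The members were followed in skin of Pyrus pyrifolia, the Asian pear, by RNA sequencing of 4 varieties with 3 biological replicates each, 12 libraries in all. All fruit was mature, untreated and grown in orchards in Yizheng. Akibae was picked 120 days after full bloom, Nijisseiki 135 days, and SuCui NO.1 and CuiYu both 105 days, so variety and harvest day cannot be told apart except between the last pair. The study concerned russet, the corky brown surface of some pears; which varieties were russeted is not stated in the labels, and the variety Chili was not analysed here.

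Libraries held 11981445 to 15136559 counted reads. The library labelled Nijisseiki replicate 1 stood apart from its replicates, with 137 and 118 genes at 10 CPM or more on one side and at most 0.5 CPM on the other, against 6 to 44 genes for the other pairs of libraries of 1 variety. CPM here are counts scaled to a common library total, with that total adjusted by the TMM method. Markers for fruit epidermis (36 genes by name) summed to 166 to 193 CPM in Akibae, 134 to 370 in Nijisseiki, 225 to 409 in SuCui NO.1 and 499 to 601 in CuiYu, with 11 to 25 of the genes at 0 in a library. Periderm markers (59 genes) summed to 285 to 713 CPM over all libraries, and green parenchyma markers (51 genes) to 849 to 2850, with 12 to 21 and 7 to 12 of them at 0. Vascular markers (6 genes) summed to 5.86 to 42.4 CPM in Akibae, 1.26 to 3.03 in Nijisseiki, 1.59 to 10.4 in SuCui NO.1 and 0.418 to 0.677 in CuiYu, with 1 to 4 at 0.

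Most members carried the domain their family is known by. The Pfam column listed the Aux/IAA domain for 32 of 34, the ARF domain for 29 of 36 and the SAUR domain for 46 of 52, and the expected domain for each GH3, PIN, AUX/LAX and auxin-repressed member. The names are those of the nearest known protein, often from another species, and 144 of the 162 share their name with at least 1 other member. Where copies are nearly identical, counting can divide their reads, which leaves the value of any 1 copy uncertain.

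The families differed in how much of them was in use. Enough reads for a test were found for 97 members, and 65 were not tested, among them 25 without a read in any library. All but 4 of the 36 ARFs were tested (32), as were 24 of 34 Aux/IAA, 6 of 10 AUX/LAX and 7 of 14 PIN members. Only 24 of 52 SAUR and 2 of 14 GH3 members were, and 13 SAUR members had no read. The untested members had a median of 4 reads over the 12 libraries and at most 81. The 5 members named SAUR71 all had none.

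Per gene length, the auxin-repressed proteins stood above every other family. Their 2 genes together reached 2761.6 to 6760.5 FPKM in a library, the length-scaled unit the authors computed. The 34 Aux/IAA members summed to 954.7 to 2597.9 FPKM and the 36 ARFs to 450.6 to 869.4. The SAUR sum lay between 136.0 and 1031.6, AUX/LAX between 51.6 and 204.8, GH3 between 2.3 and 69.8, and PIN between 4.5 and 19.7.

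**Figure D1:**
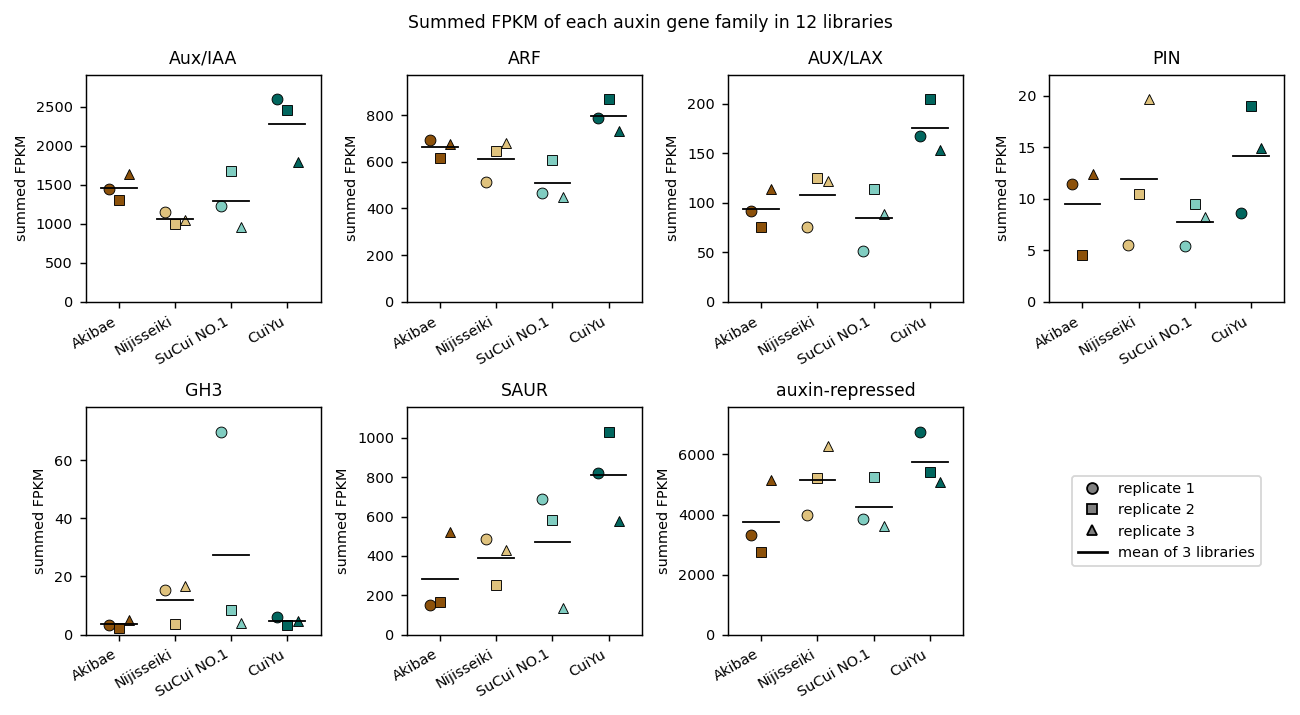
Summed FPKM of each of the 7 auxin gene families (y axis, linear, from 0) in the 12 libraries, with 1 symbol per library and a bar for the mean of the 3 libraries of a variety. The Aux/IAA, ARF and AUX/LAX sums of all 3 CuiYu libraries lie above those of the other 9, while the scales of the y axes differ between families.

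In the test over all 4 varieties, edgeR's quasi-likelihood F test with Benjamini-Hochberg adjustment over all genes tested and a threshold of 0.05, 25 of the 97 tested members passed (25.8%), against 28.3% of all genes tested. By family, 11 of 24 Aux/IAA, 8 of 32 ARF, 4 of 6 AUX/LAX, 1 of 24 SAUR, 1 of 2 GH3, 0 of 7 PIN and 0 of 2 auxin-repressed members passed. DESeq2, which called 42% of all genes, called 15 Aux/IAA, 13 ARF, 5 AUX/LAX, 7 SAUR, 1 GH3, 1 PIN and 0 auxin-repressed members. Without CuiYu replicate 1, or without CuiYu replicate 2, 16 members passed. In bulk skin, fewer cells of a type and less RNA per cell cannot be told apart.

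Most pairwise calls of members involved CuiYu, and in most of these CuiYu was the higher variety. Of all genes tested, 15.1%, 15.4% and 17.4% were called between CuiYu and Akibae, Nijisseiki and SuCui NO.1. The pairs without CuiYu held 2.53% to 16.3%. Its mean was the highest of the 4 varieties for 56 of the 97 members (57.7%), against 26.8% of all genes tested, and the lowest for 6 members (6.19%) against 31.7%. Akibae was lower than CuiYu in 11 members (11.3%) and higher in 2 (2.06%), where 8.09% and 6.99% of all genes were called in those directions. Nijisseiki was lower than CuiYu in 10 members (10.3%) and higher in 1 (1.03%), against 7.37% and 8.03% of genes. SuCui NO.1, picked on the same day as CuiYu, was lower in 15 members (15.5%) and higher in 3 (3.09%), against 8.58% and 8.86%.

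These counts moved with single libraries, and with each of those named here left out more members were still called lower than higher against CuiYu. Without Akibae replicate 1, Akibae replicate 2, CuiYu replicate 1 or CuiYu replicate 2, the Akibae against CuiYu calls numbered 7, 5, 6 and 6. Without CuiYu replicate 1 or 2, those of Nijisseiki against CuiYu numbered 7 and 6 and those of SuCui NO.1 against CuiYu 8 in either case; without SuCui NO.1 replicate 1 the last were 11. The median log2 fold of the tested members was -0.61 in Akibae, -0.43 in Nijisseiki and -0.58 in SuCui NO.1 against CuiYu, beside 0.03, 0.05 and 0.06 for all genes.

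In 13 members (13.4%) all 3 CuiYu libraries lay above the other 9, as in 7.48% of all genes tested. In 1 member (1.03%) they lay below, as in 6.08%. CuiYu was above each other variety, by all 3 of its pairwise tests, in 3 members (3.09%) and below each in 1 (1.03%), against 2.11% and 2.3% of genes. SuCui NO.1 was above each in 2 members (2.06%) and below each in 1 (1.03%), against 1.66% and 2.41%. It was set apart in 1 member without Akibae replicate 2, SuCui NO.1 replicate 1 or any CuiYu library and in 7 without Nijisseiki replicate 1. The summed epidermis markers given above were also higher in each CuiYu library than in any other, and the summed sparse vascular markers lower. Single genes of the epidermis list went both ways. HOTHEAD (gene25700) held 94.6 to 116.9 CPM in CuiYu and at most 43.3 elsewhere. ABC transporter G family member 11 (gene30640) held 0.753 to 1.74 in CuiYu, against 141.3 in SuCui NO.1 replicate 3. The vascular gene10580 had reads in CuiYu alone, at most 0.147 CPM, which is too few to give a direction. The part of either list in the CuiYu levels was not tested.

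The pairs without CuiYu held fewer calls of members. Akibae was higher than SuCui NO.1 in 5 members (5.15%) and lower in 4 (4.12%), against 7.62% and 8.66% of genes. Nijisseiki was higher than SuCui NO.1 in 2 (2.06%) and lower in 6 (6.19%), against 6.68% and 5.76%. With the replicate number as a block, which pairs these varieties as described under the processing, 7 members were called between Nijisseiki and SuCui NO.1. Fitted on the 6 libraries of both varieties alone, 4 were called with the block and 2 without it. The Akibae against SuCui NO.1 count was 5 without Akibae replicate 2 and 18 without Nijisseiki replicate 1. That of Nijisseiki against SuCui NO.1 was 3 without Nijisseiki replicate 2, 4 without its replicate 3, 5 without CuiYu replicate 1 or 2, and 13 without Nijisseiki replicate 1.

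Akibae and Nijisseiki differed in 0 members by edgeR's test, where 0.962% of genes were higher and 1.57% lower in Akibae. At an unadjusted p under 0.05, 12 members differed, and DESeq2 called 6. Without Nijisseiki replicate 1, the library that stood apart, edgeR called 3, and without SuCui NO.1 replicate 1 it called 1.

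**Figure D2:**
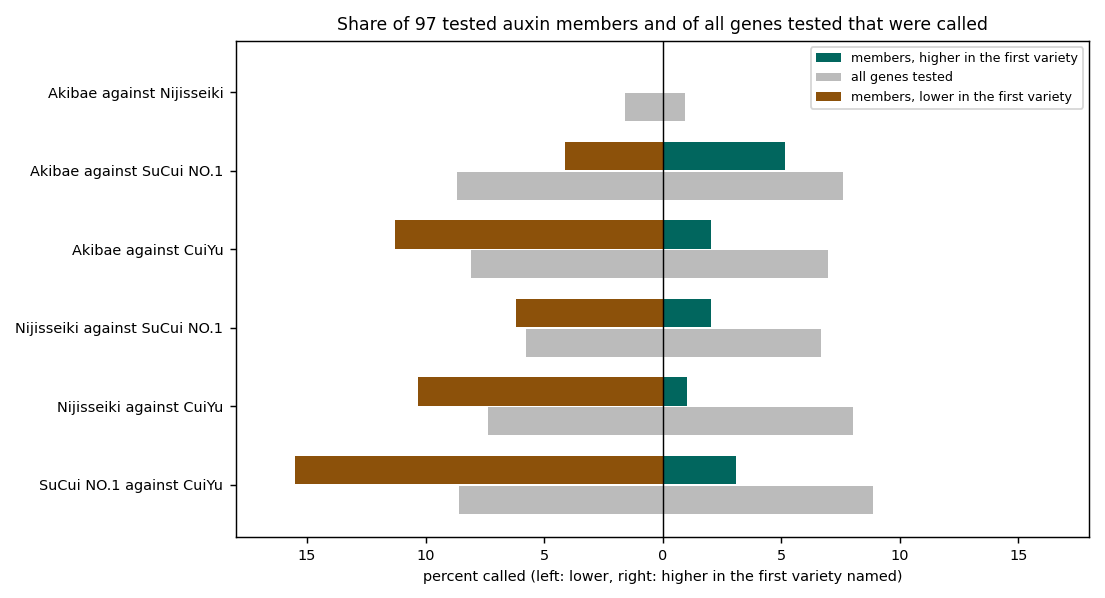
Percent of the 97 tested auxin members (coloured bars) and of all 26307 genes tested (grey bars) called in each pair of varieties, with genes lower in the first variety to the left of 0 and higher ones to the right. In the 3 pairs with CuiYu, 10.3% to 15.5% of the members were lower in the first variety and 1.03% to 3.09% higher, while the grey bars are of like length on both sides.

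Among the repressors, the largest share of the Aux/IAA transcript came from IAA27 on chromosome 2 (gene29841, bases 2798504 to 2801352 in the positions of the deposited table, whose build the labels do not state), which by name belongs with repressors known from Arabidopsis. Its level was 744, 836 and 1003 CPM in the 3 Akibae libraries, 485, 318 and 258 in Nijisseiki, 754, 1166 and 544 in SuCui NO.1 and 1444, 1345 and 943 in CuiYu. All Nijisseiki libraries lay below all others, while the CuiYu range overlapped that of Akibae and SuCui NO.1. The 4-variety test passed (adjusted p = 0.0136), and Nijisseiki was lower than CuiYu by a log2 fold of -1.82 ± 0.34 (SE; adjusted p = 0.00516). Its difference from SuCui NO.1, -1.22 ± 0.33, passed with adjusted p = 0.0356 but was lost in 10 of 19 alternatives, 8 of them with 1 library left out, with p up to 0.164.

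A copy of the same name on chromosome 15 (gene5126, bases 12322973 to 12325869) set CuiYu apart. It stood at 614, 579.6 and 373 CPM in CuiYu. The other libraries held 59.8, 87.0 and 172 CPM in Akibae, 32.7, 57.8 and 56.1 in Nijisseiki, and 85.3, 200.3 and 77.2 in SuCui NO.1. No library of another variety reached the lowest CuiYu value. The log2 fold against CuiYu was -2.30 ± 0.48 in Akibae, -3.42 ± 0.50 in Nijisseiki and -2.11 ± 0.47 in SuCui NO.1, with adjusted p of 0.00862, 0.00137 and 0.0125 by edgeR's test, and no alternative ended any of these calls.

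IAA3 (gene14714, chromosome 12, bases 20123885 to 20124940), in Arabidopsis a repressor also known as SHY2, was the other Aux/IAA member with CuiYu above each variety. CuiYu libraries held 167, 184 and 138 CPM, and all other libraries 54.4 to 98.9. The log2 folds were -1.07, -1.29 and -1.35 for Akibae, Nijisseiki and SuCui NO.1 against CuiYu, each ± 0.23, with adjusted p of 0.00987, 0.00411 and 0.00312. IAA16 (gene14713) lies 9985 bases from it and was more abundant, with 469 ± 103 FPKM (SD, n = 3) in CuiYu, 369.6 ± 68.5 in Akibae, 289 ± 66.6 in Nijisseiki and 228 ± 59.6 in SuCui NO.1. It missed the threshold over the 4 varieties (adjusted p = 0.0534), though it passed in 4 of 17 alternatives, with DESeq2 and without CuiYu replicate 3, SuCui NO.1 replicate 2 or Nijisseiki replicate 1. SuCui NO.1 was called below CuiYu, -1.03 ± 0.27 (adjusted p = 0.0253), the same direction as for IAA3. That call was lost in 5 of 18 alternatives, without SuCui NO.1 replicate 1 or 3, without CuiYu replicate 1 or 2 and in the fit of the 6 libraries, with p up to 0.0922.

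Neighbouring Aux/IAA genes were common, and neighbours did not always share a pattern. Within 100 kb of each other on 1 chromosome or scaffold lay 7 pairs of Aux/IAA members. One pair on chromosome 13, 62392 bases apart, was made of the auxin-induced protein 22B (gene30188), named after a mung bean repressor, and IAA14 (gene30191). The first was highest in SuCui NO.1, at 83.4, 36.1 and 13.9 CPM, against 0.462, 1.36 and 3.30 in Akibae, 3.83, 2.53 and 6.65 in Nijisseiki and 8.49, 10.8 and 5.60 in CuiYu. Every SuCui NO.1 library lay above the other 9, although they spread widely among themselves.

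The 22B member passed against each variety, with a log2 fold of -4.69 ± 0.80 for Akibae (adjusted p = 0.00296), -3.35 ± 0.74 for Nijisseiki (0.014) and, for SuCui NO.1 against CuiYu, 2.42 ± 0.71 (0.0391). The last call was lost in 7 of 18 alternatives, among them without each CuiYu library, SuCui NO.1 replicate 2 or Akibae replicate 2, with p up to 0.147 and a log2 fold of 1.59 without SuCui NO.1 replicate 1. That of Nijisseiki was lost in 3 of 19, without Nijisseiki replicate 2 and in both fits of the 6 libraries, with p up to 0.088. Its neighbour IAA14 was instead highest in CuiYu, at 51.9, 39.0 and 27.7 CPM, above the 5.88 to 26.4 of all other libraries (4-variety adjusted p = 0.0215, up to 0.0914 in the 2 of 17 alternatives that lost it). Its pairwise calls against Akibae and Nijisseiki, -2.08 ± 0.52 and -2.01 ± 0.52, were each lost in 4 of 18 alternatives. These left out CuiYu replicate 1 or 2, Akibae replicate 1 or 2 in the first pair and Nijisseiki replicate 2 or 3 in the second, with p up to 0.0887.

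A further pair on chromosome 10 held AUX28 (gene17371) and the auxin-induced protein 22D (gene17372), both named after legume repressors. AUX28 was at 113, 72.2 and 42.5 CPM in CuiYu, and at 13.9, 16.8 and 9.98 in Akibae. Nijisseiki gave 7.13, 27.7 and 37.2 and SuCui NO.1 14.2, 60.8 and 36.4, so that both overlapped or neared the lowest CuiYu library. Its call over the 4 varieties (adjusted p = 0.0455) was lost in 9 of 17 alternatives, with p up to 0.147. Akibae was below CuiYu by -2.49 ± 0.64 (adjusted p = 0.0247), which was lost in 5 of 18, without any single Akibae library or CuiYu replicate 1 or 2, with p up to 0.0867. The 22D gene held 1.31, 0.559 and 2.78 CPM in Akibae and 12.4, 13.4 and 6.04 in CuiYu, a log2 fold of -2.77 ± 0.80 (adjusted p = 0.0392). This call was lost in 8 of 18 alternatives, among them without each CuiYu library, Akibae replicate 1 or 2, Nijisseiki replicate 3 or SuCui NO.1 replicate 2, with p up to 0.131, and 22D did not pass over the 4 varieties (adjusted p = 0.0969).

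IAA26 (gene17143) was low in SuCui NO.1 and higher in both Akibae and CuiYu. It held 225, 91.2 and 83.2 CPM in Akibae, 93.8, 129 and 95.2 in CuiYu, 37.6, 46.8 and 72.9 in Nijisseiki and 24.6, 51.4 and 39.9 in SuCui NO.1. The SuCui NO.1 libraries lay below all of Akibae and CuiYu. Akibae exceeded SuCui NO.1 by a log2 fold of 1.79 ± 0.42 (adjusted p = 0.0159). This became 1.18 without Akibae replicate 1 (0.0597) and 1.53 without SuCui NO.1 replicate 1 (0.0579). The call was also lost in the fit of the 6 libraries (0.0557). SuCui NO.1 was below CuiYu by -1.45 ± 0.42 (adjusted p = 0.0356), lost in 6 of 18 alternatives, with the block and without SuCui NO.1 replicate 1 or 3 or any CuiYu library, with p up to 0.118. Akibae and CuiYu were not called apart (0.33 ± 0.41, adjusted p = 0.639). The other tested gene named IAA26 also passed over the 4 varieties, so these values are those of gene17143 alone. Another IAA27 copy, gene6013 on chromosome 9, was called with Akibae highest, at 1.23 to 2.70 CPM there and at most 0.910 elsewhere (4-variety adjusted p = 0.0146, up to 0.0632 without Akibae replicate 2 or 3). That is far below gene29841 and gene5126, while the copies gene2610 and gene37555, at 0.251 to 15.8 and 0.1501 to 3.13 CPM over all libraries, were low too and did not pass. AUX28 on chromosome 5 (gene7060), next after IAA27 and IAA16 among Aux/IAA members with 145 FPKM over the 12 libraries, did not differ beyond its spread (adjusted p = 0.394).

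**Figure D3:**
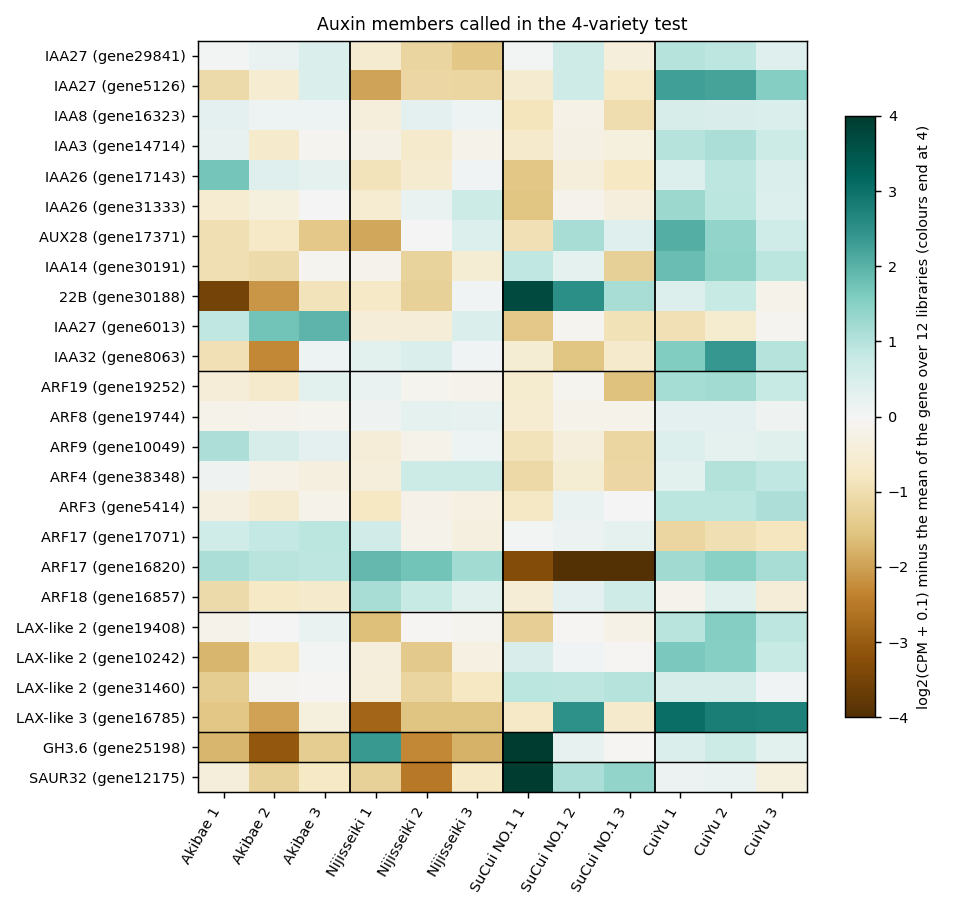
The 25 auxin members called in the 4-variety test (rows, grouped by family) in the 12 libraries (columns). Colour is log2 of CPM plus 0.1 minus the mean of the gene over all libraries, with colours ending at 4 and at -4, green above and brown below the mean. Most Aux/IAA and AUX/LAX rows are greenest in the 3 CuiYu columns; gene16820 is brown in SuCui NO.1, and the rows of 22B, GH3.6 and SAUR32 are darkest in SuCui NO.1 replicate 1.

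Among the transcription factors that Aux/IAA proteins restrain, ARF2 (gene18223) had the most transcript, with 123 ± 11.5 FPKM in CuiYu, 133 ± 27.6 in Akibae, 70.4 ± 25.8 in SuCui NO.1 and 94.7 ± 34.1 in Nijisseiki (SD, n = 3 each). It did not pass over the 4 varieties (adjusted p = 0.131), nor did the most abundant copies of ARF5 (gene30464) and ARF6 (gene2502), at 34.5 and 32.9 FPKM over the 12 libraries, which are named after activating ARFs of Arabidopsis. ARF19 (gene19252), likewise named after an activator, was called (4-variety adjusted p = 0.017, up to 0.07 without CuiYu replicate 1 or 2). It held 611, 633 and 465 CPM in CuiYu, above the 91.2 to 340.4 of the other libraries. SuCui NO.1 against CuiYu, a log2 fold of -1.70, was called in every alternative. The Akibae call against CuiYu, -1.26, was lost in 8 of 18, and Nijisseiki was not called (adjusted p = 0.0662). The ARF19 genes gene12712 and gene10944 did not pass (adjusted p = 0.16 and 0.127). ARF8 (gene19744) passed narrowly (adjusted p = 0.0495), and its copy gene33938 did not (0.72).

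The firmest CuiYu difference of the ARFs was in ARF3 (gene5414, chromosome 10, bases 22895710 to 22900942), named after the Arabidopsis factor also called ETTIN, which patterns organs. CuiYu held 59.2, 58.3 and 65.5 CPM. The other values were 24.9, 20.8 and 27.3 in Akibae, 17.9, 26.7 and 25.3 in Nijisseiki and 18.3, 35.8 and 31.4 in SuCui NO.1, none of them near the CuiYu libraries. The log2 folds against CuiYu were -1.32, -1.39 and -1.10, each ± 0.25, with adjusted p of 0.00516, 0.00435 and 0.013, and no alternative ended these calls. The other gene named ARF3 (gene449), at 66.6 ± 6.41 CPM in CuiYu and means of 41.4 to 54.7 elsewhere, did not pass (adjusted p = 0.432).

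The genes named ARF17, an ARF controlled by a microRNA in Arabidopsis, numbered 3, of which 2 had their lowest mean in CuiYu and the other was nearly without reads in SuCui NO.1. The copy on chromosome 8 (gene17071, bases 5406912 to 5411359) stood at 12.5, 14.4 and 15.3 CPM in Akibae, 12.3, 7.08 and 6.44 in Nijisseiki, 8.28, 9.07 and 9.68 in SuCui NO.1 and 3.55, 3.99 and 4.50 in CuiYu. CuiYu lay below every other library, and this was the single member set below each variety there. The log2 fold was 1.81 ± 0.27 for Akibae against CuiYu (adjusted p = 0.00136). For Nijisseiki, 1.10 ± 0.27, and SuCui NO.1, 1.17 ± 0.27, the calls (0.0194 and 0.0137) were lost without CuiYu replicate 1 or 2, with p up to 0.0794. The other copy lowest in CuiYu (gene35999), at a mean of 2.59 CPM there and 3.22 to 10.01 elsewhere, did not pass (adjusted p = 0.0865).

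The copy on chromosome 15 (gene16820, bases 33210962 to 33214602) had 1 read in the 3 SuCui NO.1 libraries together, beside 135 in Akibae, 214 in Nijisseiki and 179 in CuiYu. In CPM this was 3.78, 3.43 and 3.23 in Akibae, 6.52, 5.85 and 4.06 in Nijisseiki and 4.18, 4.97 and 3.91 in CuiYu. The ratio of reads to SuCui NO.1 was 136.8 for Akibae, with a 95% counting interval of 24.13 to 5441, 212.5 (37.74 to 8432) for Nijisseiki and 170.9 (30.28 to 6786) for CuiYu. Exact binomial intervals of this kind cover counting error only. The 4-variety test gave an adjusted p of 0.000127, and all 3 pairwise calls with SuCui NO.1 held in every alternative. So few counted reads do not tell a silent gene from one whose sequence differs from the reference or is missing.

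ARF9 (gene10049) and ARF4 (gene38348), both named after ARFs counted as repressing in Arabidopsis, were lowest in SuCui NO.1. ARF9 held 38.7, 55.2 and 32.4 CPM there, against 154, 103 and 89.9 in Akibae and 96.5, 87.7 and 93.1 in CuiYu, with Nijisseiki in between at 52.4, 64.6 and 79.2. Akibae exceeded SuCui NO.1 by a log2 fold of 1.46 ± 0.26 (adjusted p = 0.00342), and SuCui NO.1 was below CuiYu by -1.14 ± 0.25 (0.0125). ARF4 held 18.1, 27.7 and 17.9 CPM in SuCui NO.1 against 50.0, 80.2 and 72.0 in CuiYu, a log2 fold of -1.67 ± 0.32 (0.00594). No alternative ended these 3 calls. Nijisseiki exceeded SuCui NO.1 in ARF4 by 1.31 ± 0.32 (0.021), which was lost in 6 of 19 alternatives, with p up to 0.106. More abundant copies of both names did not pass. The ARF9 copy gene33941 was lowest in Nijisseiki, at a mean of 61.1 CPM beside 85.2 in SuCui NO.1 (adjusted p = 0.0776). The ARF4 copy gene28412 was lowest in SuCui NO.1, at a mean of 78.5 CPM (adjusted p = 0.265).

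Of the influx carriers, 4 of 6 tested AUX/LAX members passed the 4-variety test, against 28.3% of all genes tested. In 3 of the 6 all CuiYu libraries lay above the other 9, against 7.48% of all genes. The most abundant carrier, an auxin transporter-like protein 2 on chromosome 4 (gene19408), held 205, 309.6 and 199 CPM in CuiYu. The others held 95.5, 105 and 121 in Akibae, 35.0, 103 and 98.7 in Nijisseiki and 42.4, 103 and 90.3 in SuCui NO.1. No library of another variety reached the CuiYu values, but Akibae was not called against CuiYu. The calls against CuiYu, -1.59 ± 0.42 for Nijisseiki (adjusted p = 0.0271) and -1.60 ± 0.42 for SuCui NO.1 (0.0247), were each lost in 3 of 18 alternatives. The lost calls included the fits without CuiYu replicate 1 or 2, with p up to 0.103. Over the 4 varieties the call (adjusted p = 0.0256) was lost in 3 of 17 alternatives, with p up to 0.118.

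A same-named carrier on chromosome 12 (gene10242, bases 15153794 to 15159182) gave 72.5, 66.7 and 40.4 CPM in CuiYu, above the 32.4, 24.2 and 22.5 of SuCui NO.1, the 17.7, 8.60 and 18.8 of Nijisseiki and the 6.86, 13.6 and 23.7 of Akibae. The log2 fold was -2.0 ± 0.44 for Nijisseiki (adjusted p = 0.0126), which held in every alternative, and -2.02 ± 0.44 for Akibae (0.0113), which reached adjusted p = 0.051 without Akibae replicate 2. SuCui NO.1 was not called against CuiYu.

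A low-level copy, the auxin transporter-like protein 3 on chromosome 15 (gene16785), was nearly confined to CuiYu and 1 SuCui NO.1 library. Its reads numbered 209 in CuiYu, 61 in SuCui NO.1, 9 in Akibae and 4 in Nijisseiki. CuiYu held 5.78, 4.82 and 4.57 CPM and SuCui NO.1 0.335, 3.87 and 0.359, while the other 6 libraries stayed at 0.450 or below. Nijisseiki against CuiYu was -5.54 ± 1.14 (adjusted p = 0.00913) in every alternative a call, and Akibae against CuiYu, -4.40 ± 1.05 (0.0169), was lost without Akibae replicate 1 or 2 (up to 0.0748). Nijisseiki against SuCui NO.1, -3.82 ± 1.13 (0.0494), was lost in 13 of 19 alternatives, and reached adjusted p = 0.218 without SuCui NO.1 replicate 2.

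The last called carrier differed in its order. An auxin transporter-like protein 2 (gene31460, chromosome 12) was highest in SuCui NO.1, at 20.1, 19.9 and 20.9 CPM, followed by CuiYu at 15.1, 15.1 and 11.3, Akibae at 4.08, 9.97 and 10.3 and Nijisseiki at 7.83, 4.55 and 6.09. The SuCui NO.1 libraries lay close together and above the other 9. Nijisseiki against SuCui NO.1 gave -1.72 ± 0.34 (adjusted p = 0.00748) in every alternative a call, and Akibae against SuCui NO.1 -1.32 ± 0.33 (0.0214), lost only when fitted on those 6 libraries (0.0648). Nijisseiki was also called below CuiYu, by a log2 fold of -1.17, which was lost in 7 of 18 alternatives, with adjusted p up to 0.124.

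No efflux carrier was called by edgeR. Of the 7 tested PIN members, 0 passed by edgeR, 0 had an unadjusted p under 0.05 in the 4-variety test, and DESeq2 called 1. PIN3 (gene7993), in Arabidopsis an efflux carrier of growth responses to light and gravity, was the most abundant of them, with 7.29 ± 1.76 FPKM in CuiYu, 4.79 ± 1.92 in Akibae, 4.74 ± 1.09 in SuCui NO.1 and 3.99 ± 2.18 in Nijisseiki (SD, n = 3 each; adjusted p = 0.384). Neither gene named PIN2 had a read.

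Few of the auxin-conjugating GH3 enzymes were in use, and those in use peaked in 1 library. Of 14 members, 5 had no read and 2 were tested. The GH3.6 member (gene25198, on an unplaced scaffold) held 61.1 CPM in SuCui NO.1 replicate 1 and 4.17 in Nijisseiki replicate 1, and at most 1.28 in the other 10 libraries. GH3.1 (gene41480) was likewise highest in SuCui NO.1 replicate 1, at 95.6 CPM, beside 17.9 and 7.75 in its replicates, 30.2, 5.71 and 36.8 in Nijisseiki, 6.78, 4.87 and 11 in Akibae and 11.7, 5.64 and 8.85 in CuiYu.

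The call of GH3.6 rested on that library. GH3.6 passed the 4-variety test (adjusted p = 0.0422), which was lost in 10 of 16 alternatives and reached adjusted p = 0.285 without SuCui NO.1 replicate 1. Its fold between Akibae and SuCui NO.1, -7.25 ± 2.14 (log2; adjusted p = 0.0419), became -2.58 (adjusted p = 0.328) without it. GH3.1 did not pass (adjusted p = 0.112).

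**Figure D4:**
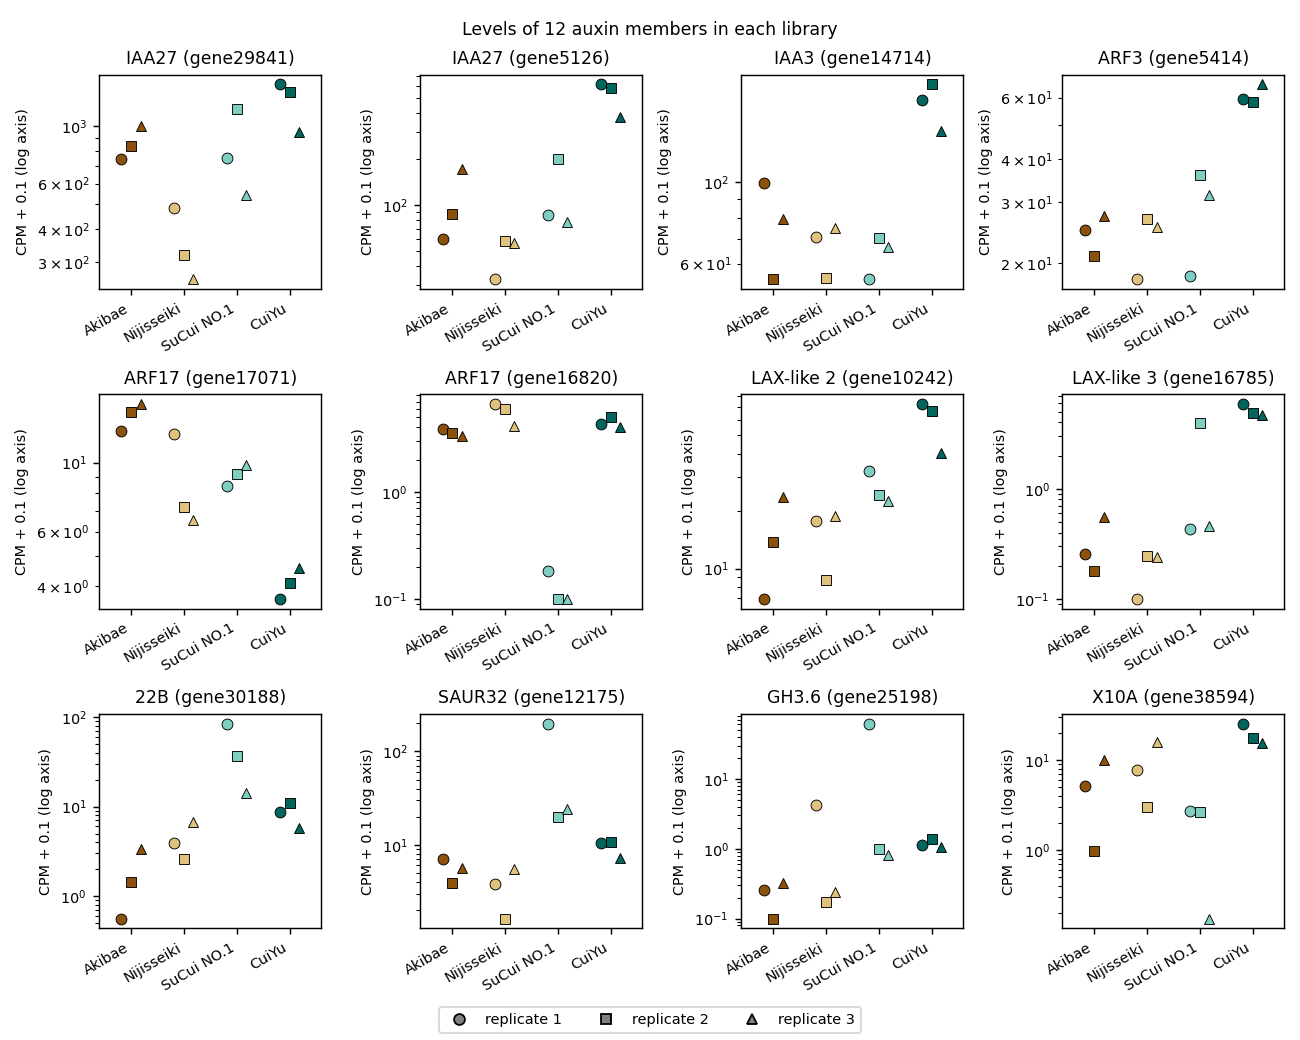
Levels of 12 auxin members in each library (y axis, CPM plus 0.1, log scale), with the varieties along the x axis and symbols for the replicates. CuiYu lies above the rest in IAA27 (gene5126), IAA3, ARF3 and LAX-like 2 and below it in ARF17 (gene17071), SuCui NO.1 is lowest in ARF17 (gene16820), and SuCui NO.1 replicate 1 is far above its replicates in SAUR32 and GH3.6.

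SAUR genes are small, quickly induced growth genes, and here their levels spread widely between replicates. Over tested SAUR members averaging 1 CPM or more, the median coefficient of variation within a variety was 29.3% in CuiYu, 73% in Akibae, 90.2% in SuCui NO.1 and 57.8% in Nijisseiki. All genes at that level gave 16.2%, 20.3%, 30.1% and 25.8%. Replicates of 1 variety were ordered alike across the family: Akibae replicate 3 was the highest of its variety for 17 of 24 SAUR members, and SuCui NO.1 replicate 3 the lowest for 17.

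Over all 97 tested members the same libraries led, with Akibae replicate 3 highest of its variety for 61.9%, against 37.5% of all genes. SuCui NO.1 replicate 3 was the lowest for 51.5%, against 33.8%, and CuiYu replicate 3 for 56.7%, against 34.9%. The vascular marker sum was also highest of its variety in Akibae replicate 3, at 42.4 CPM beside 5.86 and 8.46, and in SuCui NO.1 replicate 3, at 10.4 beside 1.59 and 3.42. Most of it was 1 gene, SIEVE ELEMENT OCCLUSION B (gene37837), at 37.1 and 7.75 CPM in these libraries. IRREGULAR XYLEM 15 (gene1779) held 0.975 and 0 there, and was highest in replicate 2 of both varieties, at 1.68 and 2.01. The part of these markers in the orders was not tested.

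SAUR32 (gene12175, chromosome 7, bases 22239120 to 22240016) was the single SAUR member called by edgeR in the 4-variety test (adjusted p = 0.00375), where DESeq2 called 7. It held 197, 19.6 and 24.2 CPM in SuCui NO.1, against 6.86, 3.75 and 5.48 in Akibae, 3.74, 1.52 and 5.39 in Nijisseiki and 10.2, 10.5 and 7.08 in CuiYu. All SuCui NO.1 libraries lay above the others, and replicate 1 about an order of magnitude above its own replicates. Akibae against SuCui NO.1 was -3.90 ± 0.85 (adjusted p = 0.0111) and Nijisseiki -4.50 ± 0.88 (0.00752), and without SuCui NO.1 replicate 1 they were -2.04 and -2.62, with p of 0.0173 and 0.00676. In fits of the 6 libraries alone the Nijisseiki call was lost, with p up to 0.0752. SuCui NO.1 against CuiYu, 3.11 ± 0.82 (0.0254), was 1.24 without that library (0.0932). The Akibae call was also lost without Akibae replicate 2 (0.0528). The CuiYu call was also lost without each CuiYu library (up to 0.0885) and in the fit of the 6 libraries of its pair (0.0628). Genes named ARG7, a name planned as part of the SAUR family, are not members by the rule and are described further below. Of these, 3 of 19 tested passed the 4-variety test, against 28.3% of all genes.

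The most abundant SAUR member, SAUR50 on chromosome 5 (gene27063), held 140.0, 228 and 129.5 CPM in CuiYu, and between 2.93 and 121 in Akibae alone. The CuiYu libraries lay above all others, but the spread within Akibae was wide and the 4-variety test did not pass (adjusted p = 0.219). X10A (gene38594), named after a soybean SAUR, was lower in SuCui NO.1, at 2.59, 2.53 and 0.0717 CPM, than in CuiYu, at 25.3, 17.6 and 15.4. This call, -3.49 ± 1.03 (adjusted p = 0.0406), was lost in 8 of 18 alternatives, also when any single CuiYu or SuCui NO.1 library or Akibae replicate 1 was left out, with p up to 0.104.

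SAUR genes often stand in rows on a chromosome, and 19 of the 52 members lay in 3 such groups, with gaps of at most 50000 bases. On chromosome 10, 8 members between bases 4924954 and 5032361 summed to 20.27, 11.57 and 90.19 CPM in Akibae, 105.4, 23.19 and 92.16 in Nijisseiki, 101.7, 87.57 and 1.793 in SuCui NO.1 and 144.4, 140.4 and 83.52 in CuiYu. The sum in SuCui NO.1 replicate 3 was thus a small fraction of that in its replicates. A second row on chromosome 10, 5 members between bases 5619030 and 5695314, gave 0.1435 CPM in the same library, beside 16.49 and 8.4 in its replicates.

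The row on chromosome 5, 6 members between bases 5276789 and 5327470, gave 0.8608 CPM in SuCui NO.1 replicate 3, beside 5.272 and 28.62. In CuiYu it gave 29.86, 56.98 and 16.14, in Akibae 2.543, 7.341 and 11.71, and in Nijisseiki 21.31, 5.419 and 14.15. In all 3 rows Akibae replicate 3 exceeded the other Akibae libraries, and Nijisseiki replicate 2 was the lowest of its variety. The rows were found from positions alone, and their sums are given without a test.

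**Figure D5:**
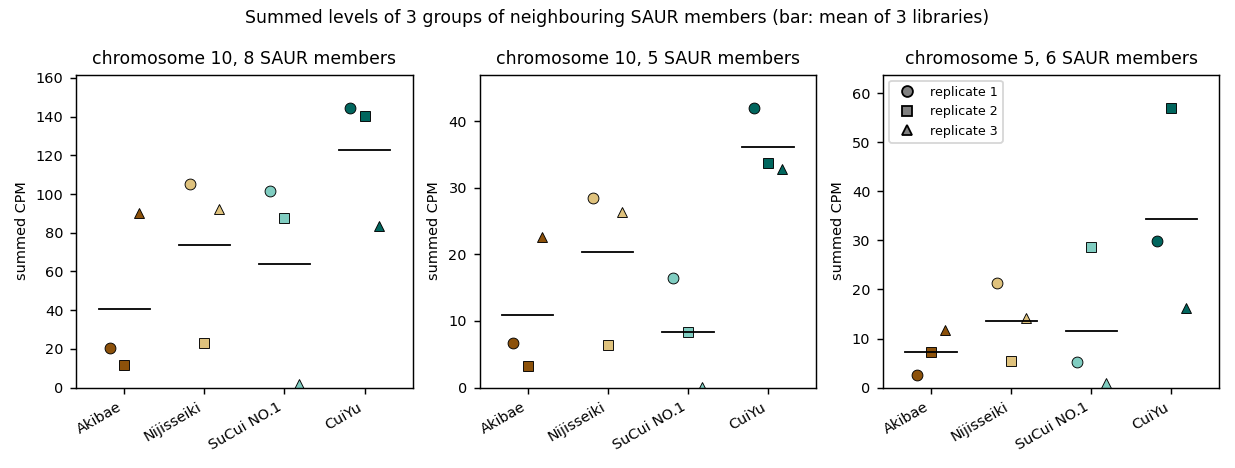
Summed CPM (y axis, linear, from 0) of the SAUR members in 3 rows of neighbouring genes, in each library, with a bar for the mean of the 3 libraries of a variety. In every panel the 3 replicates of Akibae, Nijisseiki and SuCui NO.1 spread widely, with SuCui NO.1 replicate 3 at 1.793, 0.1435 and 0.8608.

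The auxin-repressed 12.5 kDa proteins, named after a strawberry gene that falls when auxin is given and belongs to a family linked to dormancy and growth arrest, had the highest mean FPKM of all members, 3979 for gene428 and 747 for gene5444 over the 12 libraries, and were not called. In CPM, the one on chromosome 5 (gene428) held 2295, 1759 and 3324 CPM in Akibae, 2525, 3173 and 3937 in Nijisseiki, 2626, 3012 and 2179.6 in SuCui NO.1 and 4229.7, 3306 and 3241 in CuiYu. The varieties overlapped, and the adjusted p was 0.392. The copy on chromosome 10 (gene5444) was at 717 ± 142 CPM in CuiYu, 327 ± 195 in Akibae, 596 ± 347 in SuCui NO.1 and 654 ± 156 in Nijisseiki (SD, n = 3 each; adjusted p = 0.29). Of the pair, 0 had an unadjusted p under 0.05 in the 4-variety test, and DESeq2 called 0.

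The steps around these families were also looked up by name, in 4 lists that hold no member and in the genes named ARG7. Of receptors, their SCF ligase parts and Topless co-repressors, 14 of 47 tested genes passed the 4-variety test. The counts were 3 of 12 for auxin synthesis, 6 of 19 for storage and turnover, 13 of 32 for transport regulators and 3 of 19 for ARG7, against the 28.3% of all genes given above. Of the 47 receptor-list genes, 8 were higher and 0 lower in Akibae than in CuiYu, 2 and 2 in Nijisseiki, and 3 and 3 in SuCui NO.1. Of the 19 storage genes, 3 were higher and 0 lower in Akibae, 4 and 0 in Nijisseiki, and 4 and 0 in SuCui NO.1. The 12 synthesis genes gave 2 and 0, 2 and 0, and 2 and 1 in the same order, and the 32 transport regulators 4 and 1, 3 and 1, and 5 and 2. Of all genes, 6.99%, 8.03% and 8.86% were higher than in CuiYu, and 8.09%, 7.37% and 8.58% lower.

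A Topless-related protein 1 (gene31141), a co-repressor that Aux/IAA proteins recruit, was lowest in Nijisseiki, at 21, 18.6 and 17.7 CPM, against 73.6, 66.1 and 109 in Akibae, 47.1, 50.4 and 39.7 in SuCui NO.1 and 99.2, 104 and 112 in CuiYu. Nijisseiki lay below every other library, and SuCui NO.1 below those of Akibae and CuiYu. It was 1 of 4 genes in these lists called between Akibae and Nijisseiki, with a log2 fold of 2.11 ± 0.20 (adjusted p = 0.00032), and Nijisseiki was below CuiYu by -2.45 ± 0.20 (3.32e-05). Another gene named Topless-related protein 1, without an annotated identifier, was low in both Nijisseiki and CuiYu (4-variety adjusted p = 0.000152). Akibae exceeded them by log2 folds of 5.69 and 5.43. Nijisseiki against SuCui NO.1 was -4.96, and SuCui NO.1 against CuiYu 4.70. These calls were lost in no alternative.

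Of the storage list, indole-3-acetate O-methyltransferase 1 (gene27673), which turns auxin into its methyl ester, was lowest in CuiYu. It held 0.766, 0.0753 and 0.516 CPM there, against 52.1, 53.2 and 50.1 in Akibae, 21.6, 54.9 and 67.8 in Nijisseiki and 3.26, 11.8 and 48.6 in SuCui NO.1. CuiYu was below each variety, by log2 folds of 6.79 ± 1.05, 6.69 ± 1.05 and 5.51 ± 1.01 for the other 3 against it (adjusted p = 0.00176, 0.00211 and 0.00487), and without SuCui NO.1 replicate 3 the last was 4.03 (0.00791).

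The nitrilase NIT4A (gene25609), of a family named with auxin synthesis though NIT4 enzymes act mainly on cyanoalanine, was also lowest in CuiYu, at 29.8, 20.5 and 26.9 CPM against 57.2 to 103 elsewhere (log2 1.65 ± 0.22, 1.91 ± 0.23 and 1.82 ± 0.23 for Akibae, Nijisseiki and SuCui NO.1 against CuiYu; adjusted p = 0.000782, 0.000377 and 0.000492). NIT4B (gene33070) was instead lowest in SuCui NO.1, at 0.251, 0.818 and 0.287 CPM against 4.0 to 27.8 elsewhere (4-variety adjusted p = 0.00182). The hydrolase ILR1 (gene4121), which frees auxin from amino acids, was lower in the varieties picked at 105 days, at 1.65 to 4.61 CPM, than in Akibae and Nijisseiki, at 4.55 to 22.4 (4-variety adjusted p = 0.0109). The ranges met at a single Akibae library. All 4 pairwise calls behind this order could be lost, in 2 to 5 alternatives each and with adjusted p up to 0.126, among them without Akibae replicate 1 or 3, SuCui NO.1 replicate 1 or 3, or any CuiYu library.

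Relatives of WAT1, which moves auxin out of the vacuole in Arabidopsis, did not share a pattern. The relative named after At3g30340 (gene22246) held 7.87, 5.05 and 19.9 CPM in SuCui NO.1 and at most 1.46 in any other library, and the one named after At3g28050 (gene40763) held 2.95 to 7.95 in Akibae and Nijisseiki and at most 0.502 in SuCui NO.1 and CuiYu. Their 4-variety adjusted p were 0.00076 and 0.00117. An ARG7 gene (gene35282), named after an auxin-induced mung bean gene, had no read in SuCui NO.1 beside 467, 515 and 90 reads in Akibae, Nijisseiki and CuiYu. Against a floor of 3 reads over the SuCui NO.1 libraries it was 157.7-fold, 170.5-fold and 28.63-fold higher (4-variety adjusted p = 5.99e-05). The 95% counting intervals of the ratios to SuCui NO.1 start at 127.7, 138.1 and 22.81. As for gene16820, this does not tell a silent gene from one whose sequence differs from the reference or is missing. A second ARG7 gene (gene17847), inside the first SAUR row on chromosome 10, held 11, 14.4 and 0.789 CPM in SuCui NO.1 and at most 0.974 elsewhere, so SuCui NO.1 replicate 3 was again the low library there (4-variety adjusted p = 0.0116).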

How the data were processed

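The table deposited by the authors for the series gives each gene's position and protein hits and, for every library, a raw count of reads and an FPKM value, per the file headers. The authors computed the deposited FPKM values from gene length and library total; these were used for levels between genes and not tested. Skin RNA was obtained by a CTAB method and prepared with an NEB Next Ultra library kit, per the labels' protocols. Not given in the sources used here are the aligner, counting tool, strand setting, genome build and annotation, so reads of overlapping or antisense genes may be shared. Positions are those of the table. No 2 libraries held identical counts, and 0 value columns were without a sample.

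Tests on the deposited counts used edgeR 4.0.16 (R 4.3.3). TMM scaling and filterByExpr by variety left 26307 of 43732 genes. A mean per variety was fitted by glmQLFit to the 12 libraries (common biological coefficient of variation 0.413) and tested over the 4 varieties and in each of the 6 pairs, with Benjamini-Hochberg adjustment over all genes tested. P-values weigh differences between variety means against the spread between libraries of 1 variety. The SE of a log2 fold is its size over the root of F. A variety is set apart where all 3 of its pairs are called in 1 direction. Alternatives were DESeq2 1.42.0, other size factors, other filters, a replicate block, fits of 6 libraries and leaving out each library.

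Members and lists were chosen with earlier results of these data known, and the ARG7 list was added after the names in the table had been read. Named were, if averaging 1 CPM or more, the most abundant member and the 3 smallest p of each family, the 3 largest called folds in each direction of each pair, the members that set a variety apart, and the 2 smallest p of each pathway list. Further genes were named for their place beside these, after their values were seen. A pathway gene without an annotated identifier is given by name alone.

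Same-numbered libraries were compared by the correlation of their deviations from the variety means. Between Nijisseiki and SuCui NO.1 all 3 exceeded 0.1 (0.369, 0.362 and 0.196), so a fit pairing these varieties by replicate number was added. Between SuCui NO.1 and CuiYu they were 0.132, -0.028 and 0.199. The main tests used no pairing, and the labels do not say what a number marks.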

Additional observations from a re-analysis of the deposited data

How the results depend on the processing

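Of 194 counts of called members under the alternatives, 153 were within 1.5 times the main count, among them those with other size factors and other filters. DESeq2 called 42 members over the 4 varieties in place of 25, 24 in place of 13 for Akibae against CuiYu, 17 in place of 9 for Akibae against SuCui NO.1, 20 in place of 11 for Nijisseiki against CuiYu, 13 in place of 8 for Nijisseiki against SuCui NO.1 and 6 in place of 0 for Akibae against Nijisseiki. It set CuiYu apart in 7 members in place of 4 and Nijisseiki in 1 in place of 0. Fits of the 6 libraries of a pair called 26, 5, 18 and 2 members for Akibae against CuiYu, Akibae against SuCui NO.1, Nijisseiki against CuiYu and Nijisseiki against SuCui NO.1. The cause of these differences was not tested.

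Leaving out 1 library at a time gave 16 to 34 members over the 4 varieties, 0 to 3 for Akibae against Nijisseiki, 5 to 18 for Akibae against SuCui NO.1, 5 to 19 for Akibae against CuiYu, 3 to 13 for Nijisseiki against SuCui NO.1, 6 to 15 for Nijisseiki against CuiYu and 8 to 22 for SuCui NO.1 against CuiYu. Members set apart numbered 0 to 1 in Akibae, 0 to 1 in Nijisseiki, 1 to 7 in SuCui NO.1 and 3 to 6 in CuiYu. The highest values of the pairs and of the 4-variety test, other than in Nijisseiki against CuiYu, came without Nijisseiki replicate 1.

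With the replicate number as a block, 20 members were called over the 4 varieties and 10, 10, 9, 7 and 16 in the pairs with any call. For Nijisseiki against SuCui NO.1, a block in a fit of 6 libraries, chosen after seeing the data, called 4. For no other pair of varieties did all same-numbered libraries exceed 0.1: over 18 same-numbered pairs the correlation of deviations ran from -0.218 to 0.369, and 5 exceeded 0.1. Of 45 pairwise calls of members named by the rule, 21 were lost in no alternative.

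With 3 libraries per variety, a member that missed the threshold is not shown to be equal between varieties. Members with few reads, such as most GH3 and PIN genes, are limited by depth. Harvest day and variety cannot be told apart here, other than between SuCui NO.1 and CuiYu.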
